A study of Homo sapiens with 6 samples.

Results

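The genes described here encode the ubiquitin conjugating enzymes (UBE2), the HECT-type ligases named UBE3, the deubiquitinases named USP and OTU, the RING proteins named RNF, the TRIM proteins, not all of which hold a RING domain, and the F-box proteins (FBXO, FBXL and FBXW). They were chosen by the start of the current gene symbol, with UBE2C and UBE2S left out because they belong to mitosis. The rule found 120 genes at 152 spots, of which 119 genes at 150 spots were tested, among 6255 named genes and 9169 tested spots in all. A member spot was dropped only if it held the stand-in of 10 on all 6 arrays, so spots at the floor remain among those tested. RNF10, a RING ligase, was listed at the stand-in intensity of 10 on all 6 arrays at its 1 spot and has no value here. RNF166 lost 1 of its 2 spots in the same way. The rule uses symbols and no measured value.

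RNA was measured in SH-SY5Y cells, an established human neuroblastoma line with features of immature sympathetic neurons. In the 3 GFP control samples the cells had received a GFP vector, pEGF-C2, that held no cDNA. In the 3 DN-TRF2 samples they had received pIRES2-EGFP with a dominant-negative form of TRF2, a shelterin protein that protects chromosome ends, so insert and vector backbone cannot be told apart. Both groups were selected in geneticin at 500 µg/ml and collected on day 7 from independent experiments, 3 in number, and radiolabelled cDNA of each sample went onto an array of its own. The labels describe transfected and drug-selected populations and name no clones.

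Ubiquitin is a small protein that is activated by an E1 enzyme, passed to an E2 conjugating enzyme and joined to a target with the help of an E3 ligase. HECT ligases carry the ubiquitin themselves, RING ligases bring the E2 and the target together, and F-box proteins are the target-binding part of cullin-RING ligases. Deubiquitinases remove the modifier again. The chains can send a protein to the proteasome, as known for the neuronal repressor REST, or they can act as signals, as at DNA breaks and at uncapped telomeres, where RNF8 and the E2 UBE2N build chains that recruit repair proteins. The series title names degradation and the neuronal programme, and the question put to these genes is whether RNA of the enzymes of this pathway differed with dominant-negative TRF2.

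Median intensity over the tested spots ran from 480 to 712 on the 6 arrays, and the correlation between arrays across spots from 0.954 to 0.992. GFP control replicate 2 stood farthest from its group, with an SD of its deviations over spots of 0.30 (log2), against 0.25 and 0.21 for the other controls and 0.12 to 0.15 for the DN-TRF2 arrays. The gene of TRF2 had no named spot, so the labels could not be checked against it. Of 16 markers of sympathetic neuroblasts 9 were measured, and 12 of their 16 spots lay above the median signal. DBH, the enzyme that makes noradrenaline, stood at signal percentile 82.0 over named genes and HAND1 near the floor at 2.89. The defining factor gene HAND2 was not measured. Markers of blood cells (4 of 12 measured), of liver and epithelium (8 of 9) and of stroma (4 of 7) had median signal percentiles of 43.3, 38.6 and 52.8 over their spots, against 61.6 for the neuroblast markers, and none of their spots was at or under 10 on every array. Single genes of these other lists ranged from percentile 2.56 over named genes (HBB, blood) to 99.2 (FN1, stroma). Summed intensity of these lists overlapped between groups: 18380 to 24440 in controls and 19210 to 23630 in DN-TRF2 for neuroblast markers, 3179 to 3997 and 2476 to 3815 for blood, 8471 to 13860 and 9025 to 12530 for liver and epithelium, and 10300 to 11270 and 9940 to 11510 for stroma. Their part in the results below was not tested.

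No gene of the ubiquitin system passed the test. Values are log2 of intensity plus an offset of 50, quantile-normalized and averaged over the spots of a gene, a scale that understates changes of dim spots; a difference is DN-TRF2 minus GFP control, and the errors beside differences are standard errors from limma with 3 arrays per group. At a Benjamini-Hochberg adjusted p under 0.05, limma called 0 of 119 members and 0 of 6255 genes (background 0%), with an adjusted p of 1.00 for every member. At an unadjusted p under 0.05 there were 3 members: USP45 was higher, and FBXL12 and TRIM9 were lower. Together this is 2.52% of members, beside 3.57% of all named genes (223 of 6255), of which 2.49% were on the higher and 1.07% on the lower side. With the replicate number as a block the count was 5, adding USP47 and RNF5, against a background of 5.31%, and again 0 passed (smallest adjusted p 0.658 among members).

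The count at an unadjusted p under 0.05 hung on single arrays. Leaving out GFP control replicate 3 gave 13 members, and the share of all named genes under the same threshold was then 7.71%. Leaving out GFP control replicate 2 gave 11 (8.12% of all genes), GFP control replicate 1 gave 5 (4.19%) and DN-TRF2 replicate 3 gave 1 (1.77%). FBXL12 was among the members in each of the 6 fits that left out 1 array, USP45 in 5 and TRIM9 in 2. In each of these fits 0 members passed limma's adjusted p.

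Direction was mixed as well. A higher mean in DN-TRF2 was found for 54 members and a lower mean for 65, which is 45.4% higher against 48.0% of all named genes (background 48%). The median difference of the members was -0.012 and that of all genes -0.0067. Per array, the median deviation of the members from their own means was 0.025, 0.025 and -0.033 in controls and -0.027, 0.014 and 0.0078 in DN-TRF2, so the groups overlapped. The groups did not overlap at 7 members, or 5.88%, against 8.95% of all genes. USP45, TRIM14 and RNF183 were on the higher side, where 4.7% of all genes lay. FBXL12, FBXO27, RNFT2 and UBE2E3 were on the lower side, with 4.25% of all genes. A difference of more than 0.3 in size occurred at 12 members, or 10.1%, against 8.06% of all genes. Same-numbered arrays differed in 1 direction at all 3 replicate numbers for 13 members on the higher and 17 on the lower side, 25.2% together, against 26.8% of all genes.

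**Figure D1:**
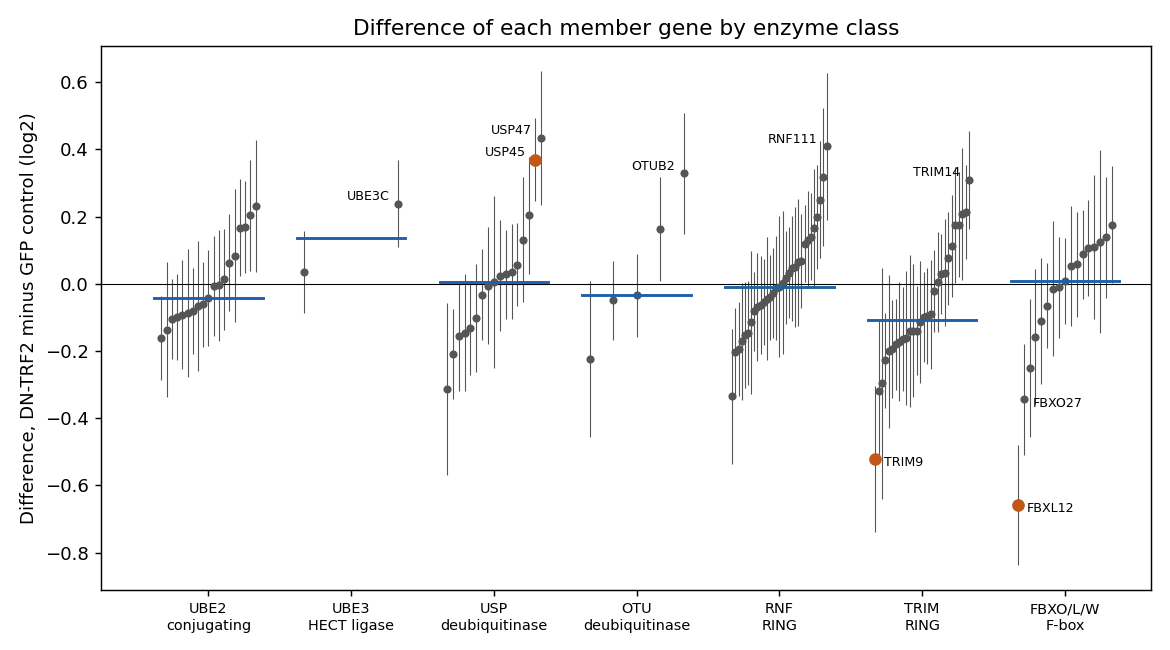
Difference of each of the 119 member genes in log2 units (DN-TRF2 minus GFP control, vertical axis) by enzyme class, with bars for limma's standard error and a blue line for the class median. Filled orange points mark the 3 genes with an unadjusted p under 0.05, USP45, TRIM9 and FBXL12, and the other 116 points are grey. The axis labels TRIM as RING, which does not hold for every TRIM gene.

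What the arrays could show is set by the width of the intervals. The median half-width of limma's 95% interval, unadjusted for the number of genes, was 0.36 over members (0.26 to 0.78). The whole interval lay within a difference of 1 in either direction for 116 of 119 members and within 0.5 for 63. The exceptions to the first bound were FBXL12, TRIM9 and TRIM32. These bounds are not limits of detection, and a p that misses the threshold does not show that a gene kept its level.

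Conjugating enzymes gave no member at an unadjusted p under 0.05. Of 19 measured UBE2 genes 7 had a higher and 12 a lower mean, with differences from -0.16 to 0.23 and a median of -0.043; leaving out GFP control replicate 1 turned the median to 0.018. UBE2G1, an E2 that builds chains with cullin ligases, read 8.02, 8.17 and 8.28 in controls and 7.99, 8.02 and 7.96 in DN-TRF2, a difference of -0.16 ± 0.12. All 3 DN-TRF2 values lay below or just within the control range. UBE2F, which carries the ubiquitin-like NEDD8 to cullins, differed by 0.20 ± 0.17, and UBE2Q1 by 0.17 ± 0.14 with both of its spots higher. The second UBE2Q1 spot lay near the floor, at percentile 2.33 of signal over all spots. UBE2N, the E2 of the repair-signalling chains, read 8.65, 8.87 and 9.02 in controls and 8.66, 8.88 and 8.88 in DN-TRF2, a difference of -0.043 ± 0.14. Its interval ran from -0.37 to 0.28. The partners that have no catalytic cysteine and bind UBE2N, UBE2V1 and UBE2V2, differed by 0.23 ± 0.20 and -0.062 ± 0.13. UBE2A and UBE2B, near-identical partners of RAD18 in DNA damage tolerance, differed by -0.0067 ± 0.15 and -0.065 ± 0.19. UBE2T, the E2 of the Fanconi anaemia pathway, differed by -0.0045 ± 0.16. UBE2E3 had groups that did not overlap, at 9.81, 9.91 and 9.80 in controls and 9.80, 9.66 and 9.76 in DN-TRF2, but the highest DN-TRF2 value and the lowest control value are nearly equal and the difference was -0.10 ± 0.12.

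Of the HECT ligases of the UBE3 name 2 were measured, and neither had an unadjusted p under 0.05. UBE3C, which extends chains on proteins at the proteasome, read 10.03, 9.81 and 9.92 in controls and 10.21, 10.02 and 10.24 in DN-TRF2. Each DN-TRF2 array was above the control array of its own number, although the lowest DN-TRF2 value lay just inside the control range, and the difference was 0.24 ± 0.13. UBE3A, the ligase gene lost in Angelman syndrome, differed by 0.035 ± 0.12, with 1 spot higher and 1 lower. Its sign turned at an offset of 10 (-0.013), with median scaling (-0.00020) and when DN-TRF2 replicate 3 was left out (-0.0025).

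Among the ubiquitin-specific proteases 9 of 17 had a higher mean, with a median of 0.0047, which turned to -0.027 with median scaling and -0.032 with the brightest spot per gene. In these settings the median over all genes was -0.030 and -0.0048. USP45, a deubiquitinase of the DNA repair nuclease subunit ERCC1, read 7.67, 7.86 and 7.80 in controls and 8.07, 8.13 and 8.24 in DN-TRF2. All 3 DN-TRF2 arrays lay above all 3 controls, and the difference was 0.37 ± 0.12 (limma, unadjusted p = 0.0153, adjusted p = 1.00). It is a dim spot, at percentile 22.5 of signal over all named genes, with raw intensity of 128, 156 and 214 in controls and 197, 233 and 300.2 in DN-TRF2, and the raw values of the groups overlapped before normalization. USP47, which acts on the repair polymerase beta, read 8.44, 8.70 and 9.22 in controls and 9.06, 9.36 and 9.24 in DN-TRF2. It was higher at every replicate number, but GFP control replicate 3 lay among the DN-TRF2 values, and the difference was 0.43 ± 0.20. Array weights gave 0.27, leaving out GFP control replicate 1 gave 0.26 and leaving out GFP control replicate 3 gave 0.65. USP14, a deubiquitinase that docks on the proteasome cap, read 7.31, 7.25 and 6.98 in controls and 7.04, 6.96 and 6.93 in DN-TRF2, a difference of -0.21 ± 0.13, with GFP control replicate 3 inside the DN-TRF2 range. USP53 and USP25, at 0.0047 ± 0.26 and 0.025 ± 0.16, had nearly equal group means. USP7 and USP15, known to remove ubiquitin from REST, were not measured.

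OTUB2, a deubiquitinase of the OTU family known to limit RNF8-dependent ubiquitin signals at DNA breaks, gave opposite differences at its spots. At the first spot it read 8.83, 9.90 and 9.51 in controls and 10.07, 10.44 and 10.33 in DN-TRF2. All 3 DN-TRF2 arrays lay above all 3 controls there, and the difference was 0.87 ± 0.25 (limma over spots, unadjusted p = 0.00648, adjusted p = 0.999). At the second spot it read 8.94, 9.27 and 8.86 in controls and 8.91, 8.56 and 8.96 in DN-TRF2, with overlap and a difference of -0.21 ± 0.17. The spots carry different cDNA clones of the gene. Averaged, OTUB2 read 8.88, 9.58 and 9.19 in controls and 9.49, 9.50 and 9.65 in DN-TRF2, a difference of 0.33 ± 0.18, with GFP control replicate 2 inside the DN-TRF2 range. Its average ranged from 0.16 to 0.50 with 1 array left out.

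The other OTU proteins were close to 0 or widely spread. OTUB1, which blocks the E2 UBE2N without cleaving, read 8.13, 8.04 and 8.13 in controls and 7.98, 8.09 and 8.10 in DN-TRF2, a difference of -0.049 ± 0.12 with spots of opposite sign. OTUD5, a regulator of innate immune signalling, differed by 0.16 ± 0.15. OTULIN, which cleaves linear ubiquitin chains, read 9.10, 8.12 and 8.80 in controls and 8.59, 8.31 and 8.44 in DN-TRF2. The DN-TRF2 values lay inside a wide control range, and the difference was -0.22 ± 0.23. Leaving out GFP control replicate 2 gave -0.49, and leaving out GFP control replicate 1 gave -0.0085. Its relative OTULINL differed by -0.035 ± 0.12 at a spot near the bottom of the signal range.

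RING proteins of the RNF name split nearly evenly, with 15 of 31 higher, a median of -0.0088 and 0 at an unadjusted p under 0.05. The sign of the median was not stable: array weights gave 0.060 with 12 lower, and leaving out GFP control replicate 2 gave 0.049. Leaving out DN-TRF2 replicate 1 kept the median below 0, at -0.053 with 18 lower. RNF111, which promotes TGF-beta signalling, read 11.79, 12.52 and 12.06 in controls and 12.30, 12.42 and 12.89 in DN-TRF2, a difference of 0.41 ± 0.22. GFP control replicate 2 lay inside the DN-TRF2 range. The difference was 0.62 when that array was left out, and 0.24 when either GFP control replicate 1 or DN-TRF2 replicate 3 was. RNF34, a regulator of caspases and p53, differed by 0.32 ± 0.21 with a control SD of 0.44 against 0.056 in DN-TRF2. Array weights gave 0.13, leaving out GFP control replicate 1 gave 0.11 and leaving out GFP control replicate 3 gave 0.54. RNF5, a ligase of the endoplasmic reticulum membrane, read 10.69, 10.55 and 9.96 in controls and 10.05, 10.26 and 9.87 in DN-TRF2; it was lower at every replicate number, with overlap and a difference of -0.34 ± 0.20. Leaving out GFP control replicate 1 gave -0.19 and leaving out GFP control replicate 3 gave -0.56, and array weights gave -0.20. RNFT2 differed by -0.20 ± 0.13. RNF183 had groups that did not overlap, at 12.68, 12.77 and 12.77 in controls and 12.84, 12.85 and 12.87 in DN-TRF2, with a small difference of 0.12 ± 0.12. RNF8, the ligase that starts the ubiquitin signal at DNA breaks, read 12.13, 11.84 and 11.87 in controls and 12.07, 11.98 and 11.88 in DN-TRF2. The groups overlapped fully, the difference was 0.034 ± 0.13 (-0.085 with median scaling), and its interval ran from -0.27 to 0.34.

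Of 28 TRIM genes 18 had a lower and 10 a higher mean, with a median difference of -0.11 against -0.0067 over all genes. Array weights gave a median of -0.022, leaving out GFP control replicate 1 gave -0.032 and leaving out GFP control replicate 2 gave -0.038; it was below 0 in all 14 alternatives. Per array the class lay at 0.039, 0.13 and -0.031 in controls and -0.068, 0.011 and -0.020 in DN-TRF2, so the groups overlapped. TRIM9, a ligase enriched in brain that takes part in axon branching, read 9.80, 9.21 and 9.41 in controls and 9.26, 9.07 and 8.54 in DN-TRF2. It was lower at every replicate number and the groups overlapped slightly, with a difference of -0.52 ± 0.22 (limma, unadjusted p = 0.0408, adjusted p = 1.00) that was -0.32 when DN-TRF2 replicate 3 was left out. TRIM14, an antiviral adaptor, read 7.89, 7.74 and 8.17 in controls and 8.20, 8.35 and 8.18 in DN-TRF2, higher on all DN-TRF2 arrays by 0.31 ± 0.15, or 0.18 with array weights. The highest control and the lowest DN-TRF2 value of TRIM14 were nearly equal. Before normalization the groups overlapped, with raw intensity of 157, 140 and 297 in controls and 220, 283 and 287 in DN-TRF2. TRIM28, the corepressor of KRAB zinc finger proteins, read 10.95, 11.48 and 10.59 in controls and 10.61, 10.84 and 10.60 in DN-TRF2, a difference of -0.32 ± 0.21. This became -0.083 when GFP control replicate 2 was left out, -0.53 when GFP control replicate 3 was, and -0.11 with array weights. TRIM47 and TRIM27 differed by -0.23 ± 0.14 and 0.21 ± 0.14. TRIM32, a ligase of muscle and neural progenitors, read 9.39, 11.01 and 9.88 in controls and 9.69, 9.90 and 9.80 in DN-TRF2. Its control SD of 0.83 was the largest among the members and came from GFP control replicate 2.

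F-box proteins had 9 of 17 higher means and a median of 0.0091. When GFP control replicate 3 was left out, 11 of 17 were lower and the median was -0.044; the median also turned, to -0.022, when DN-TRF2 replicate 3 was. FBXL12, a substrate adaptor with leucine-rich repeats, had the largest difference and the smallest p of all members. It read 7.93, 7.34 and 7.78 in controls and 6.97, 6.88 and 7.23 in DN-TRF2. All 3 DN-TRF2 arrays lay below all 3 controls, and the difference was -0.66 ± 0.18 (limma, unadjusted p = 0.00520, adjusted p = 1.00), with an interval from -1.06 to -0.25. It ranked 20 of 6255 named genes by p. The spot is dim, at percentile 12.5 of signal, with raw intensity of 163, 89.2 and 210 in controls and 70.4, 70.0 and 119 in DN-TRF2. FBXO27, an F-box protein that binds glycoproteins, differed by -0.34 ± 0.16 at a spot where 1 control array held the stand-in of 10 and DN-TRF2 arrays read 5.63, 5.37 and 11.7, so its groups differ at the floor of the scale. The difference was -0.86 at an offset of 10, -0.20 at an offset of 100 and -0.17 when GFP control replicate 1 was left out. FBXO5, the inhibitor of the anaphase-promoting complex also called EMI1, read 7.85, 7.19 and 7.96 in controls and 7.56, 7.30 and 7.38 in DN-TRF2, a difference of -0.25 ± 0.20. Leaving out GFP control replicate 2 gave -0.48, GFP control replicate 3 -0.10 and GFP control replicate 1 -0.16, and array weights gave -0.45. FBXO4, the F-box protein of TRF1, was not measured.

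**Figure D2:**
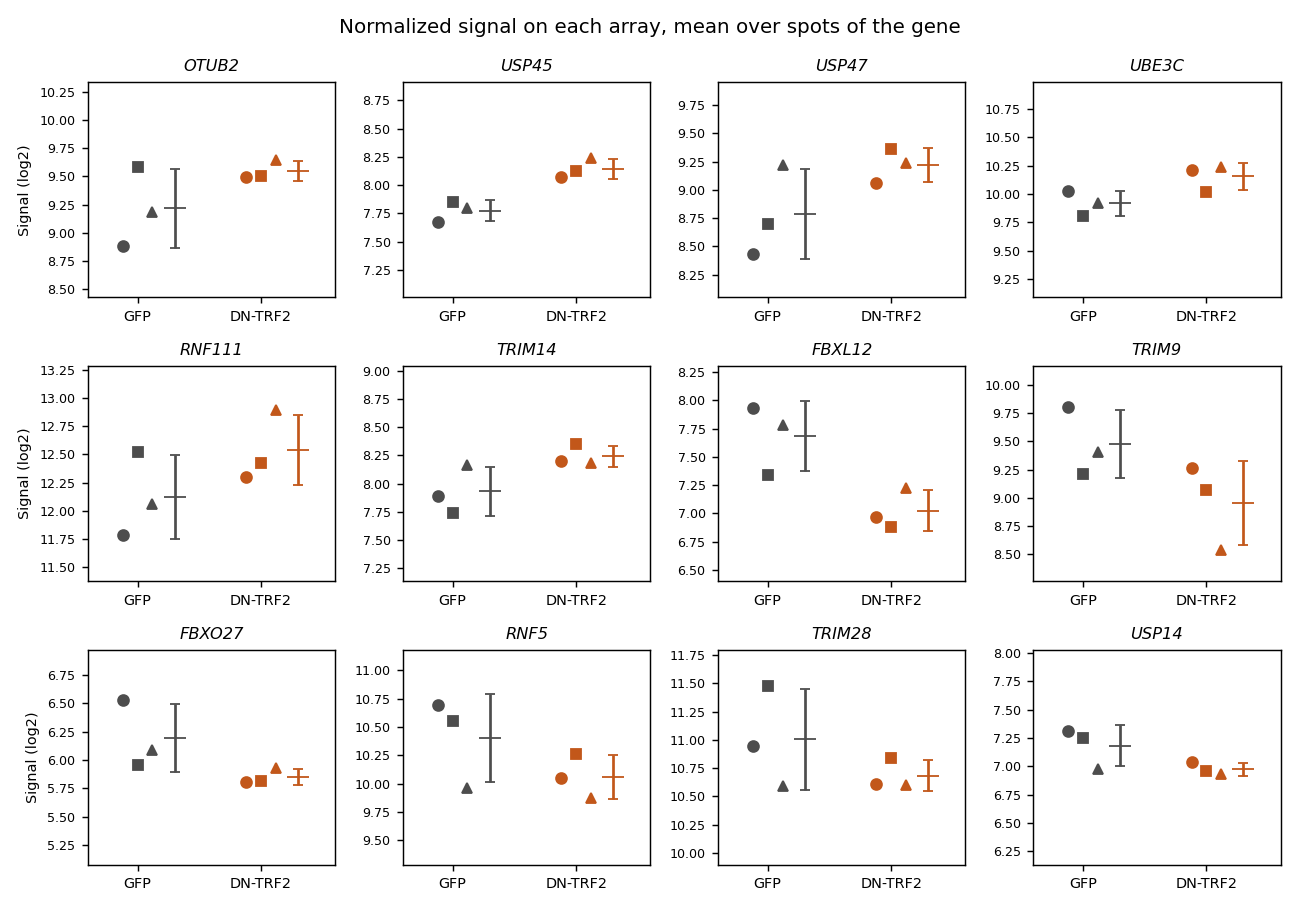
Normalized signal (log2, mean over the spots of a gene) of 12 members on each array, with circles, squares and triangles for replicates 1, 2 and 3 and the mean ± SD of 3 arrays beside them; every panel spans the same height. USP45 and TRIM14 sit higher and FBXL12 and FBXO27 lower on all DN-TRF2 arrays, TRIM14 and FBXO27 by a narrow margin, while the other panels overlap.

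Spots of 1 gene often disagreed in sign, and whether the clone or the spread between arrays set this was not tested. Of 21 members with at least 2 tested spots, only 4 had all spots on 1 side of 0 (UBE2Q1, RNF13 and FBXO31 higher, UBE2Z lower). Over members with exactly 2 spots the share was 4 of 13, or 30.8%, against 48.4% of 1057 such genes on the array. Of these 4, FBXO31 had a second spot at or under 10 on all 6 arrays. The second spot of UBE2Q1 was at percentile 2.33 of signal over all spots. At the level of spots 7 member spots had an unadjusted p under 0.05, 4.67% of 150 against 3.41% of all spots. They were the spots of FBXL12, USP45 and TRIM9 and 1 spot each of OTUB2, USP48, UBE2G2 and RNF31; the last 3 genes were singled out after their values were seen. USP48, a nuclear deubiquitinase, differed by 0.68 ± 0.26 at its first spot, where controls read 9.21, 8.56 and 9.76 and DN-TRF2 9.97, 9.83 and 9.78. At its other spots it differed by -0.013 ± 0.17 and -0.056 ± 0.25. UBE2G2, the E2 of degradation at the endoplasmic reticulum, differed by 0.48 ± 0.17 at its brightest spot, with controls at 11.50, 11.51 and 11.77 and DN-TRF2 at 12.22, 11.80 and 12.22. Its other spots differed by 0.20 ± 0.25 and -0.18 ± 0.21. RNF31, which builds linear chains, differed by -0.53 ± 0.20 at 1 spot and by -0.096 ± 0.15 and 0.18 ± 0.21 at the others. None of these spots passed (limma adjusted p = 0.999 for each).

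**Figure D3:**
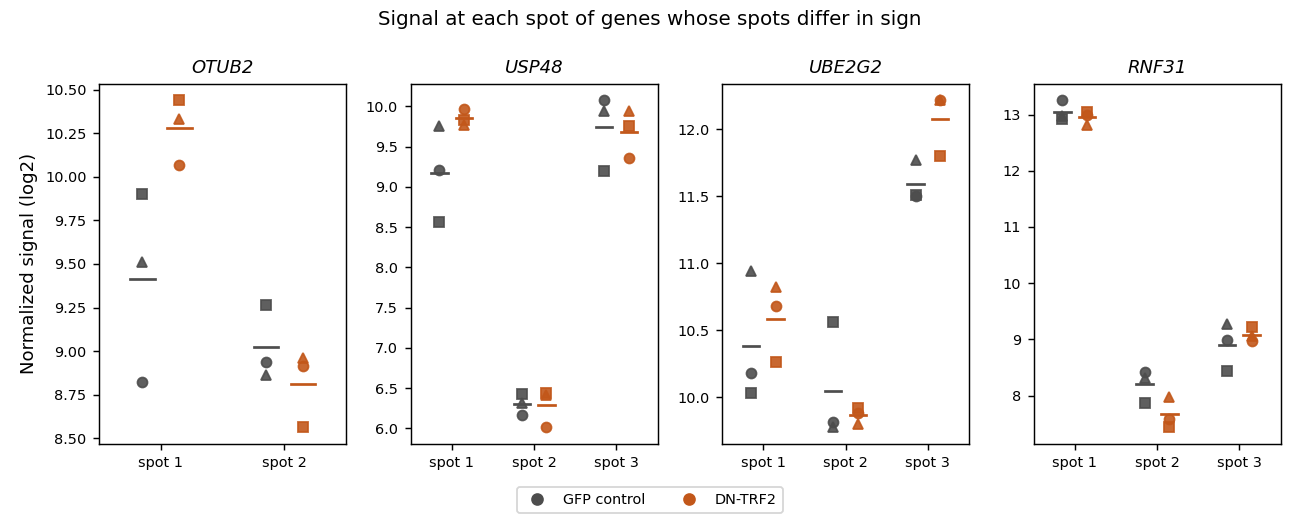
Normalized signal (log2) at each spot of OTUB2, USP48, UBE2G2 and RNF31, with grey for GFP control, orange for DN-TRF2, circles, squares and triangles for replicates 1, 2 and 3, and a line for each mean. The groups separate at the first spot of OTUB2 and USP48 and the third of UBE2G2 and overlap or turn at the other spots of these genes.

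Most members varied more among the controls than among the DN-TRF2 samples. The median SD was 0.23 over controls and 0.12 over DN-TRF2, and the control SD was larger for 94 of 119 members, 79.0% against 78.4% of all genes. GFP control replicate 2 was the control farthest from the middle value at 48 members, GFP control replicate 1 at 40 and GFP control replicate 3 at 31, which is 40.3%, 33.6% and 26.1% of members against 46.0%, 29.5% and 24.5% of all genes. After TRIM32, the largest control SDs were those of USP53 (0.55), USP21 (0.51), OTULIN (0.50) and RNFT1 (0.45), whose DN-TRF2 SDs were 0.21, 0.30, 0.14 and 0.047.

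**Figure D4:**
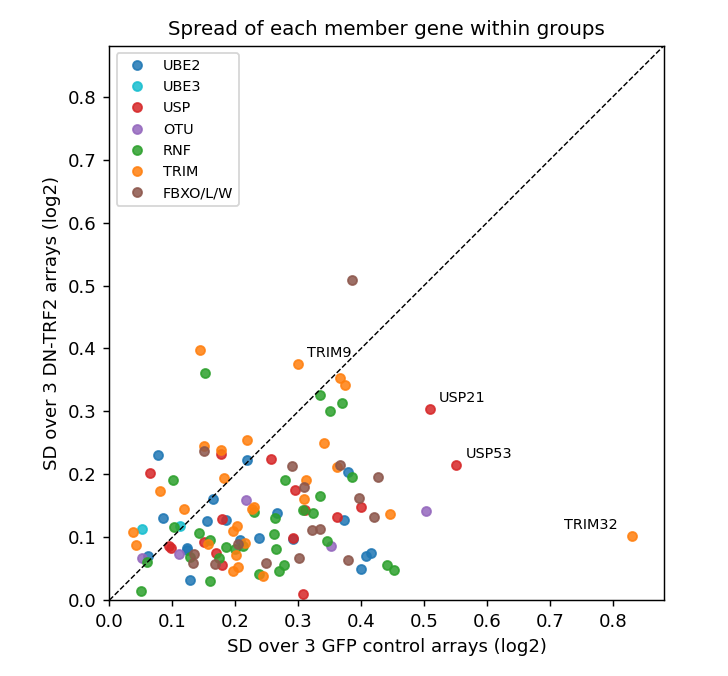
SD over the 3 GFP control arrays (horizontal, log2) against SD over the 3 DN-TRF2 arrays (vertical, log2) for each of the 119 members, coloured by class, with a dashed line of equal SD. The 94 members below the line were more spread in the controls, with TRIM32 farthest to the right at 0.83.

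Members grouped by what they act on gave no call either. Of 28 listed genes of ubiquitin signalling at DNA damage and telomeres 17 were measured, 8 with a higher mean, with a median difference of -0.0045 and 0 at an unadjusted p under 0.05. RNF111, OTUB2, TRIM28 and RNF138, a ligase of DNA end resection (0.20 ± 0.15), had the smallest p of them. The list of genes acting on p53 had 7 measured members, 5 of them with a higher mean (median 0.033); it did not hold RNF34, which stands at 0.32. Of 6 measured members that interferon induces 3 had a higher mean (median -0.0011): TRIM14 stood at 0.31, while TRIM21, an antibody receptor, and USP18, which removes ISG15, differed by -0.20 ± 0.23 and -0.15 ± 0.17. None of these lists held a member at an unadjusted p under 0.05; the DNA damage list did not hold USP45 and USP47, described above with their repair substrates.

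The rest of the pathway, outside the symbols of the rule, held 0 genes that passed. Of 11 measured ubiquitin and ubiquitin-like modifiers 6 had a higher mean, and UBB, a polyubiquitin gene, differed by 0.25 ± 0.16 with all 3 spots higher. E1 enzymes had 3 of 6 higher, with NAE1, a subunit of the NEDD8 E1, at -0.37 ± 0.20 and MOCS3 at 0.25 ± 0.15. Cullins, adaptors and regulators had 14 of 31 higher: CRBN, the cereblon substrate receptor, read 10.90, 11.59 and 11.45 in controls and 11.74, 11.84 and 11.70 in DN-TRF2, a difference of 0.45 ± 0.18. SKP2, the F-box protein that marks the cell-cycle inhibitor p27, read 9.99, 10.21 and 9.81 in controls and 9.63, 9.66 and 9.77 in DN-TRF2, a difference of -0.32 ± 0.14 with both spots lower. Other ligases had 27 of 78 listed genes measured, 18 of them with a higher mean. An unadjusted p under 0.05 was found for 2, or 7.41% against 3.57% of all named genes. Both were on the higher side, where 2.49% of all named genes lay. They were MID2, a TRIM-type ligase at microtubules (0.46 ± 0.18), and RAD18, the ligase of DNA damage tolerance (0.34 ± 0.13). The groups did not overlap at 6 of the 27, 4 higher and 2 lower, which is 22.2% against 8.95% of all genes. In the rest of these lists that share ran from 0% (E1 enzymes) to 9.09% (modifiers). Deubiquitinases of other families had 4 of 13 higher. ALG13, listed for its OTU domain and known for its part in N-glycosylation, differed by 0.33 ± 0.12, and UCHL5, a proteasome deubiquitinase, by 0.23 ± 0.14. Limma's adjusted p was 1.00 for each of these genes.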

How the data were processed

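Per the labels' protocols, about 5 µg of total RNA per sample was labelled with a radioactive nucleotide for 1-channel hybridization to cDNA spots. The intensity values are linear and stand as the authors deposited them; for image software, background treatment and scaling the sources used here give no detail. The value 10 fills most blank positions (every 25th spot), so signal over background cannot be measured; blanks and 47 further spots holding 10 throughout were dropped. Of the 9169 remaining spots, 8451 had 1 gene symbol, 21 several and 697 none listed; symbols were updated by gene ID (8493 of 8517 annotated spots matched).

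An offset of 50 was added, log2 taken, arrays quantile-normalized and spots averaged per gene. All 6255 genes were fitted with limma 3.58.1 (lmFit and eBayes under R 4.3.3). Tests were two-sided and adjusted by Benjamini-Hochberg over all genes, after a check on simulated data. After removal of group means, a control and a DN-TRF2 array sharing a replicate number had correlations of 0.390, 0.296 and 0.246 over deviations. For unlike numbers the values ran from -0.285 to -0.0356. Deviations of 3 arrays sum to 0 within a group, so positive values at like numbers push the others below 0. Pairing by number rests on these values alone. The main fit held the group only, so its p-values, standard errors and intervals ignore any pairing. The replicate block was fitted as an alternative. The labels name independent experiments.

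Members and gene lists were chosen with earlier results of these data known. Named were OTUB2 and relatives, USP7, USP15, FBXO4, RNF8 and UBE2N where measured, the 8 members per direction and up to 3 per class of smallest p, and up to 2 genes per other pathway list; members whose groups did not overlap, extremes and members of a known role were added after seeing values. Alternatives were other offsets, median scaling, filters on dim spots, the brightest spot per gene, array weights and each array left out. Clones of related genes (UBE2V1 and UBE2V2, the TRIM48, TRIM51 and TRIM43 group, UBE2A and UBE2B) may share signal.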

Additional observations from a re-analysis of the deposited data

How the results depend on the processing

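Under all 14 alternatives limma called 0 members, and 0 named genes, at an adjusted p under 0.05. With the replicate block the members at an unadjusted p under 0.05 numbered 5, or 4.2% against 5.31% of all named genes, and the block changed no call. They numbered 5 with the brightest spot per gene (4.2% against 3.33%) and 9 with array weights (7.56% against 5.77%). Without the quartile of dimmest spots 80 members were left, and 1 of them, TRIM9, was under the threshold (1.25% against 2.93%). FBXL12 and USP45 were removed by this filter and had no fit. Without spots below the median signal 56 were left, and 1 of them, OTUB2, was under the threshold (1.79% against 2.48%). This filter also removed TRIM9, and it left OTUB2 with its first spot only. Fewer genes were tested with these filters. With 1 array left out the count of members ran from 1 to 13, and the share of all genes from 1.61% to 8.12%. The members' median difference ran from -0.042 to 0.0078 with 1 array left out. Of 27 members named by rule, 22 kept their sign throughout. Many of them were named for a small p in these same data, which favours a stable sign. The replicate block cannot change a difference in this balanced design, and the brightest spot leaves genes with 1 spot as they were. OTUB1 turned to 0.073 both without the quartile of dimmest spots and with the brightest spot, UBE2N to 0.11 with the brightest spot, RNF8 to -0.085 with median scaling, and UBE3A to -0.013 at an offset of 10 and -0.00020 with median scaling. With 1 array left out OTULINL ran from -0.080 to 0.028, RNF8 from -0.021 to 0.12, UBE2N from -0.14 to 0.045 and UBE3A from -0.0025 to 0.10. The cause was not tested.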
